A study of Arabidopsis thaliana with 8 samples.

Results

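LSH2 and LSH3 are Arabidopsis ALOG proteins, and their lists of bound DNA windows were set against each other. All windows of both lists were taken, 21486 of LSH2 and 17263 of LSH3, which together make 38749 of the 116684 windows in the 7 lists of the series. A window counted as shared if it overlapped a window of the other list by 1 bp or more, and otherwise as LSH2 only or LSH3 only.

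The assay, ampDAP-seq, offers a tagged protein to PCR-amplified fragments of a genome, purifies the protein by its tag and sequences the fragments that come with it. The tag and the source of the proteins are not named in the labels. The LSH2 sample and the LSH3 sample each paired 1 such protein with DNA of 2-week-old Arabidopsis thaliana seedlings, without any other treatment in the labels. The lists of LSH1, of G1 from rice, of LOS1 and LOS2 from the liverwort Marchantia and of TMF from tomato, species known from background and not from the labels, served for comparison. The input was not used here. Each list holds the consensus of 3 replicates, per the design text, so each protein has 1 list without a measure of replicate spread, and no test between proteins was made. Read depth is unknown. Positions are printed 1-based with both ends included, and the genome build is not given in the sources used here. Intervals below are 95% Wilson intervals and cover counting error only.

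ALOG proteins are plant transcription factors with a DNA-binding domain related to that of recombinases from mobile elements. They act at shoot meristems and organ boundaries, the narrow zones that separate a new organ from the meristem. LSH3 is also known as ORGAN BOUNDARY 1. Amplified DNA carries no methylation and no nucleosomes, so the windows describe binding to bare DNA, not occupancy in the plant.

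Most of the sites of the shorter list lay in the longer one. LSH2 shared 14664 of its windows with LSH3, or 68.2% (67.6 to 68.9%), and LSH3 shared 14650 with LSH2, or 84.9% (84.3 to 85.4%). That left 6822 windows of LSH2 only and 2613 of LSH3 only. Merged into regions, the lists gave 6739 regions of LSH2 only, 2576 of LSH3 only and 14464 with both. The LSH2 list is the longer by about the same number of windows as its unshared windows exceed those of LSH3, which is arithmetic and not a result. How deeply each list was called cannot be told apart from what each protein binds.

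Shared windows were almost superimposed. The distance between centres had a median of 6 bp, 759 pairs had the same centre, and 12640 of the 14664 (86.2%) lay within 20 bp. Only 223 (1.52%) were over 100 bp apart. A single partner was the rule, since 14446 LSH2 windows overlapped 1 LSH3 window, 217 overlapped 2, and 1 overlapped more. Windows held by all 5 other lists were the most closely centred, with a median of 5 bp, against 9 bp for those of no other list.

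The unshared windows were mostly not near misses. The gap to the nearest window of the other protein had a median of 2182.5 bp for LSH2-only windows and 1222 bp for LSH3-only windows. Gaps under 200 bp were found for 587 LSH2-only windows (8.60%) and 382 LSH3-only windows (14.6%), and gaps of 2000 bp or more for 3602 (52.8%) and 967 (37.0%). LSH3-only windows were measured against the longer list, and their gaps were the shorter ones.

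**Figure D1:**
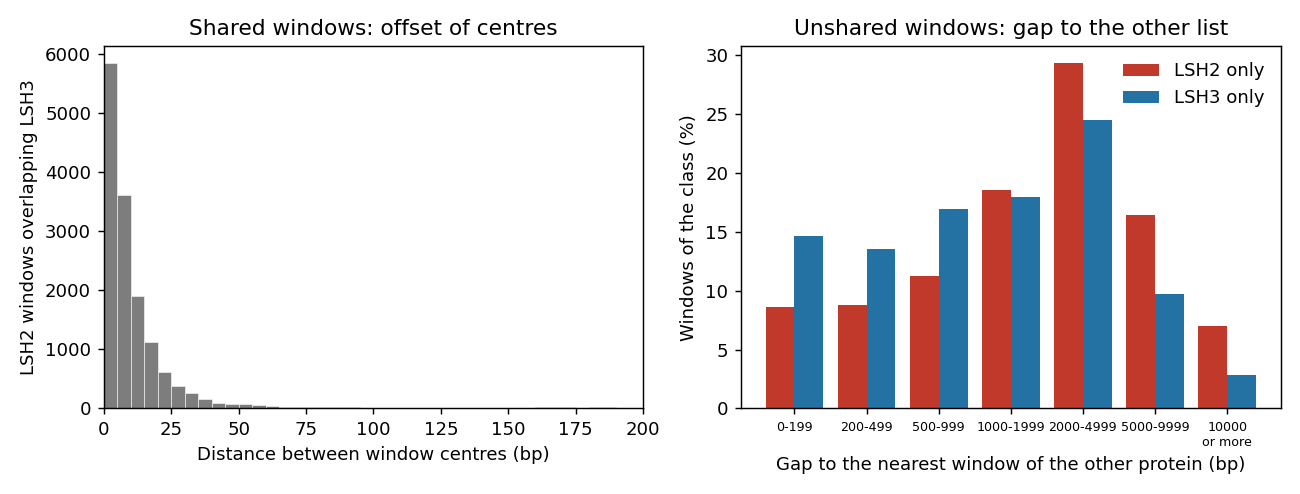
Left, number of LSH2 windows overlapping an LSH3 window by the distance between their centres in bp (steps of 5 bp); right, percent of LSH2-only and LSH3-only windows by the gap in bp to the nearest window of the other protein. Centres of shared windows lie within 20 bp in 86.2% of cases, and gaps of 2000 bp or more make up 52.8% of LSH2-only and 37.0% of LSH3-only windows.

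The places of the unshared windows differed sharply between the proteins. LSH3-only windows lay inside protein-coding genes far more often than LSH2-only windows, while outside genes windows of LSH3 alone were rare. By window centre, 3891 of 6822 LSH2-only windows were inside a gene, or 57.0% (55.9 to 58.2%), against 2204 of 2613 LSH3-only windows, or 84.3% (82.9 to 85.7%). Shared windows stood between them at 73.6% (72.9 to 74.3%). The full lists differed less, with 68.3% of all LSH2 windows and 75.3% of all LSH3 windows inside genes. The other full lists had 77.5% for LSH1, 78.2% for G1, 72.4% for TMF, 69.6% for LOS1 and 66.2% for LOS2. A lean to gene bodies was thus not particular to LSH3. Genes make up 54.1% of all bases, so LSH2-only windows were only 1.05 times as frequent inside genes as evenly spread windows would be, and LSH3-only windows 1.56 times.

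Just outside genes the difference was greatest. Within 1000 bp of a gene end there were 1604 LSH2-only windows, 23.5% of the class (22.5 to 24.5%), and 154 LSH3-only windows, 5.89% (5.05 to 6.86%), where bases of this kind make up 20.4%. In windows per Mb of such sequence this was 66.0 for LSH2 only and 6.34 for LSH3 only. For every LSH3-only window there were therefore 10.4 LSH2-only windows just outside genes and 1.77 inside genes. Farther than 2000 bp from any gene the ratio was 3.94, and over all unshared windows it was 2.61.

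The density of LSH3-only windows climbed inward across the gene end. LSH3-only windows occurred at 7.57 per Mb in the last 100 bp outside a gene, 11.6 per Mb in the first 100 bp inside, 24.99 per Mb at 200 to 300 bp and 46.7 per Mb at 900 to 1000 bp. Shared windows, counted on the LSH2 side, also became denser inward, with 81.3 per Mb in the last 100 bp outside and 196.5 per Mb at 900 to 1000 bp inside. LSH2-only windows had 60.1 per Mb just outside, 59.7 per Mb just inside and 63.3 per Mb at 900 to 1000 bp, so they showed no such slope. The 5′ and 3′ ends of genes were pooled, since gene strand was not used here.

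**Figure D2:**
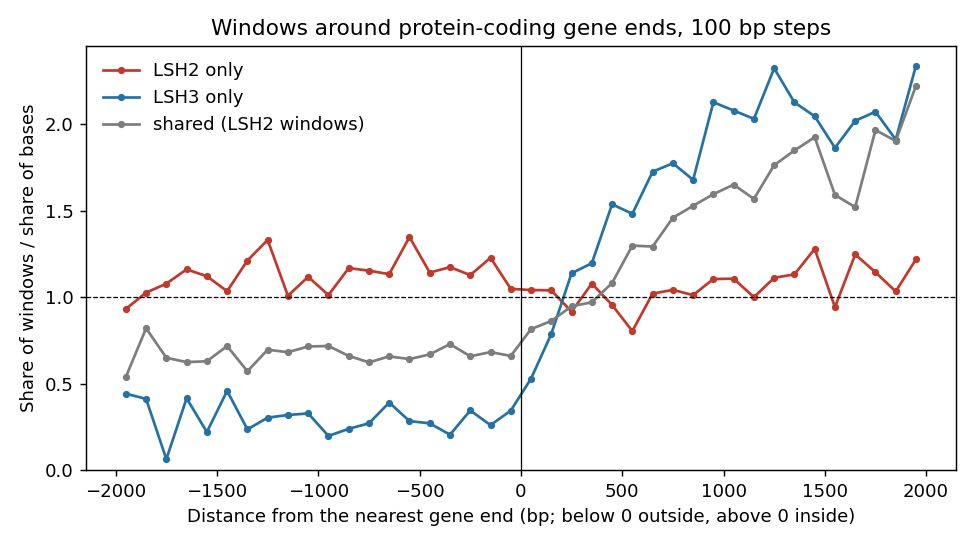
Share of the windows of each class divided by the share of bases at the same distance, in steps of 100 bp around the nearest end of a protein-coding gene (x axis in bp, below 0 outside and above 0 inside); the dashed line at 1 is an even spread. Within 1000 bp outside genes LSH2-only windows lie at 1.01 to 1.35, LSH3-only windows at 0.198 to 0.391 and shared windows between them. At 900 to 1000 bp inside the ratios are 1.11 for LSH2 only, 2.13 for LSH3 only and 1.60 for shared windows. Steps beyond 2000 bp inside are not drawn, and there the order varied between steps.

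Seen from the full lists, LSH2 held most LSH3 windows close outside genes, and LSH3 held a smaller share of the LSH2 windows there. Within 1000 bp outside a gene, LSH3 overlapped 55.6% of 3612 LSH2 windows (54.0 to 57.2%), and LSH2 overlapped 92.9% of 2165 LSH3 windows (91.7 to 93.9%). More than 2000 bp from any gene the shares were 59.8% of 1895 LSH2 windows (57.6 to 62.0%) and 85.4% of 1320 LSH3 windows (83.4 to 87.2%). Inside genes the shares were closer, 73.5% of 14682 LSH2 windows (72.8 to 74.2%) and 83.0% of 12991 LSH3 windows (82.4 to 83.7%). The share of LSH2 windows that LSH3 also held was thus lower outside genes than inside, and the share of LSH3 windows that LSH2 also held was higher within 1000 bp outside than inside.

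The contrast held on every chromosome. The share inside genes was 54.3 to 58.7% for LSH2-only windows and 79.2 to 88.2% for LSH3-only windows over chromosomes 1 to 5. It was absent in gene-poor DNA. Where fewer than 10 protein-coding genes had their middle within 50 kb, 76 of 447 LSH2-only windows (17.0%, interval 13.8 to 20.8%) and 24 of 140 LSH3-only windows (17.1%, 11.8 to 24.2%) were inside genes. With 25 to 29 such genes the shares were 61.4% (59.5 to 63.3%) and 91.0% (89.0 to 92.7%).

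Outside protein-coding genes, pseudogenes held 253 LSH2-only windows (3.71%, 3.29 to 4.18%) and 171 LSH3-only windows (6.54%, 5.66 to 7.56%), against 8.68% of all bases. The pseudogene class of the annotation includes relics of transposable elements. With genes of every kind counted, 62.0% of LSH2-only and 91.5% of LSH3-only windows were inside a gene. Long non-coding RNA genes took 51 LSH2-only (0.748%) and 10 LSH3-only windows (0.383%), close to their 0.747% of bases for LSH2 and with intervals that overlap.

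The other 5 ALOG proteins bound the shared windows far more than the unshared ones. A shared window was held by a median of 3 other lists, and a window of LSH2 only or of LSH3 only by a median of 1. No other list held 1337 of the LSH2-only windows (19.6%, 18.7 to 20.6%), 597 of the LSH3-only windows (22.8%, 21.3 to 24.5%) and 920 of the shared windows (6.27%, 5.89 to 6.68%). Most windows called unshared here were thus held by at least 1 other member of the family.

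The chance that a window was shared followed how many other lists held it. LSH3 overlapped 40.8% of 2257 LSH2 windows that no other list held, 47.8% of those in 2 other lists, 76.8% of those in 3 and 98.7% of the 3165 in all 5. LSH2 overlapped 60.6% of 1515 LSH3 windows that no other list held, 73.5% of those in 2, 89.2% of those in 3 and 98.6% of the 3154 in all 5. Windows in all 5 other lists were thus nearly always in both the LSH2 and the LSH3 list when they were in one of them.

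Sharing differed between inside and outside genes among windows of few lists. Among windows of 4 or 5 other lists nearly all were shared in either place, which left little room for a difference. At 4 other lists LSH3 overlapped 96.4% of LSH2 windows inside genes and 95.6% outside. Of LSH2 windows that no other list held, LSH3 overlapped 49.3% inside genes (46.8 to 51.9%) and 23.8% outside (20.9 to 26.9%). Of those in all 5 other lists it overlapped 98.6% inside and 99.0% outside. LSH3 windows went the other way, with 59.5% inside genes (56.8 to 62.2%) and 65.4% outside (59.6 to 70.8%) overlapped by LSH2 where no other list held them. At 2 other lists the shares were 71.2% inside (69.0 to 73.4%) and 82.4% outside (78.4 to 85.7%).

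**Figure D3:**
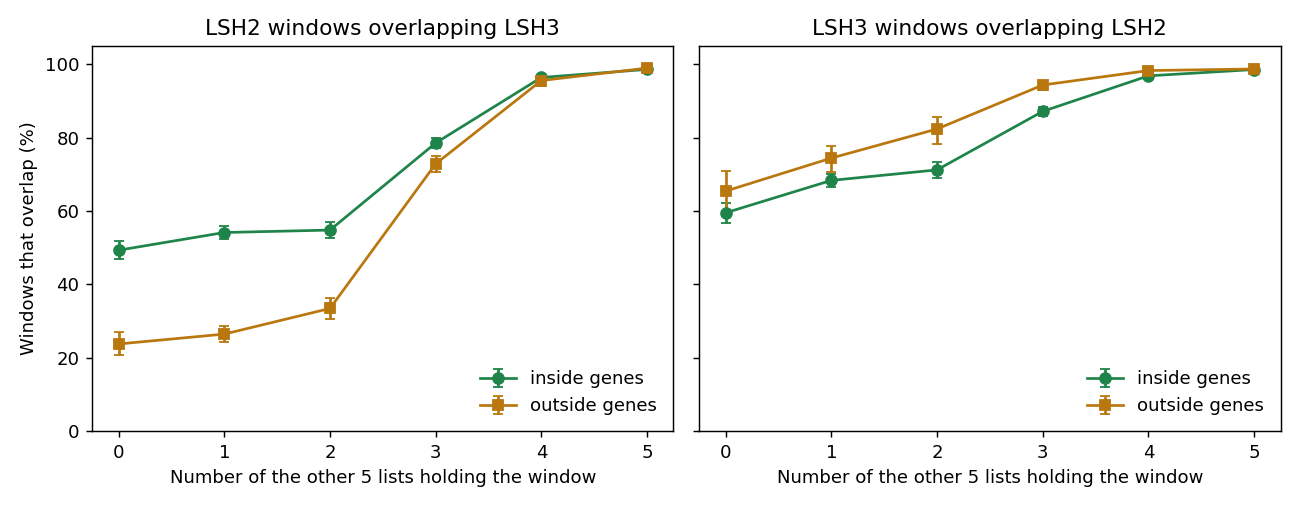
Percent of LSH2 windows overlapping LSH3 (left) and of LSH3 windows overlapping LSH2 (right) by the number of the other 5 lists that hold the window (x axis), inside and outside protein-coding genes, with 95% Wilson intervals. The LSH2 windows of no other list are shared in 49.3% of cases inside and 23.8% outside genes, and both places reach 98.6% or more at 5 lists.

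The proteins also differed in which relatives their unshared windows met. LOS1 held 33.5% of LSH2-only windows (32.3 to 34.6%) and 25.5% of LSH3-only windows (23.9 to 27.2%). TMF went the other way, with 22.5% of LSH2-only (21.5 to 23.5%) and 31.5% of LSH3-only windows (29.8 to 33.3%). G1 held 9.23% (8.57 to 9.94%) and 13.0% (11.8 to 14.4%). For LSH1 the shares were 19.3% (18.4 to 20.2%) and 21.3% (19.8 to 22.9%), and for LOS2, the longest list, 61.5% (60.4 to 62.7%) and 58.8% (56.9 to 60.7%).

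**Figure D4:**
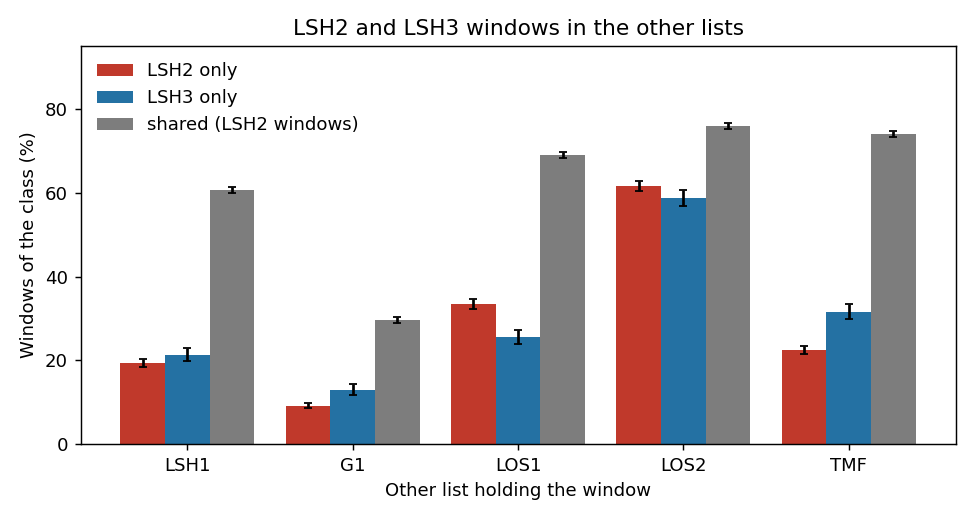
Percent of LSH2-only, LSH3-only and shared windows (y axis) held by each of the other 5 lists (x axis), with 95% Wilson intervals. LOS1 holds more of the LSH2-only windows, 33.5% against 25.5%, TMF more of the LSH3-only windows, 31.5% against 22.5% of LSH2 only, and each of the 5 lists holds a larger share of the shared windows than of either unshared class.

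Sharing was rarest among LSH2 windows that LOS2 held alone or with LOS1. LSH2 had 1287 windows that LOS1 and LOS2 held and LSH1, G1 and TMF did not. LSH3 overlapped 246 of these, 19.1% (17.1 to 21.4%). Of the 2382 LSH2 windows held by LOS2 alone it overlapped 543, 22.8% (21.2 to 24.5%), an interval that overlaps the first, and the 1839 left unshared outnumber the 1041 of LOS1 with LOS2. With TMF added to the same pair, LSH3 overlapped 2926 of 3758, 77.9% (76.5 to 79.2%). Among unshared windows, LOS1 and LOS2 without other lists held 1041 of LSH2 only and 116 of LSH3 only, 8.97 to 1. LOS2 and TMF without other lists held 142 of LSH2 only and 207 of LSH3 only, 0.686 to 1. All unshared windows stood at 2.61 to 1.

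The place of LSH2-only windows varied with the relative that held them, and that of LSH3-only windows hardly did. LSH2-only windows that LSH1 held were inside genes in 78.3% of cases (76.0 to 80.5%), and those G1 held in 81.4% (78.2 to 84.3%). Those that LOS2 held were inside genes in 50.1% (48.6 to 51.6%). LSH3-only windows held by LSH1, G1, LOS1, LOS2 or TMF were inside genes in 83.9 to 85.1% of cases. In the combination of LOS1 and LOS2 alone, 46.5% of LSH2-only windows (43.5 to 49.5%) and 80.2% of LSH3-only windows (72.0 to 86.4%) were inside genes.

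Genes hit by both proteins were the largest class. With a window centre in the gene or within 2000 bp on either side, 3215 of 27444 protein-coding genes had windows of LSH2 only (11.7%), 971 of LSH3 only (3.54%), 15426 of both (56.2%) and 7832 of neither (28.5%). LSH2 hit 18641 genes in all (67.9%) and LSH3 16397 (59.7%). In the gene body alone, LSH2-only genes numbered 1903 and LSH3-only genes 929. Of the unshared windows, 64.9% of LSH2 only and 80.1% of LSH3 only lay in or near at least 1 gene that also had a window of the other protein.

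Genes of one protein usually rested on 1 window, 2583 of the LSH2-only genes (80.3%) and 882 of the LSH3-only genes (90.8%). Their gene bodies held a window in 1092 (34.0%) and 409 cases (42.1%). Their median length was 1896 bp for LSH2 only and 2028 bp for LSH3 only, against 2400 bp for genes with both and 1632 bp for genes with neither. Among genes over 5000 bp, 86.6% had both, 5.06% LSH2 only and 1.46% LSH3 only. No window of any other list was found at 244 LSH2-only genes (7.59%) and 77 LSH3-only genes (7.93%). LOS2 hit 81.8% of LSH2-only and 81.6% of LSH3-only genes, against 77.6% of all genes. The other lists hit smaller shares than over all genes. LSH1 had 34.8 and 35.5%, against 53.3%, and G1 18.4 and 23.2%, against 32.7%. LOS1 had 41.5 and 31.2%, against 53.6%, and TMF 27.9 and 35.4%, against 52.8%.

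The LSH2-only genes with the most windows had 4 each. Of these 12 genes, 10 are named. Windows of one list that overlap each other were counted separately here and below, as in the body of TAF15 and the flank of TRM27. TAF15 (AT1G50300), a TBP-associated factor of transcription initiation, had 3 in its body and 1 in its flank. Those in the body lay on chromosome 1 at 18629098 to 18629297, 18629241 to 18629440 and 18630048 to 18630247, and the nearest LSH3 window was centred 14352 bp from the last of them. WRKY70 (AT3G56400), a transcription factor of salicylic acid defence, had 1 in its body on chromosome 3 at 20908848 to 20909047 and 3 in its flanks.

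TRM27 had 2 of its 4 windows in the body, and so did PGR5-LIKE A, of cyclic electron flow in chloroplasts. AT2G37700 had 3 of 4 there and the dioxygenase gene ALPHA DOX2 had 1. In IGMT5, NRAMP1, OLEO4 and VPS2.2 all 4 windows lay in the flanks. IGMT5 encodes an enzyme of indole glucosinolate synthesis, and LSH1 held all 4 of its windows. NRAMP1 encodes a manganese transporter, OLEO4 an oil body protein and VPS2.2 an endosomal sorting subunit. The 4 windows of NRAMP1 lay within 1745 bp of 1 end of the gene on chromosome 1, from 30376599 to 30377917, and LOS2 held 3 of them.

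LSH3-only genes reached 4 windows once, in RLP23 (AT2G32680), an immune receptor-like protein. Its body held windows on chromosome 2 at 13861338 to 13861537 and 13862290 to 13862489, and its flank held 2 more. Another 8 genes had 3 windows, and 6 of these formed neighbouring pairs with the same 3 windows. GUT2, of xylan synthesis, and APT1, an adenine phosphoribosyltransferase, shared 3 windows on chromosome 1, at 9530119 to 9530318, 9530306 to 9530505 and 9533188 to 9533387. The window from 9530119 overlaps the one from 9530306. PDS1, of plastoquinone synthesis, and its neighbour AT1G06560 shared 3 more, the closest centred 4457 bp from an LSH2 window.

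COS1, of riboflavin synthesis, held its 3 in the flank, and they are the 3 in the body of AT2G44040. RBK1, a kinase that binds ROP GTPases, had 1 in its body and AT3G60210 had 1. NP1, a stress-responsive kinase, had 2, both in its body on chromosome 1, at 2891225 to 2891424 and 2894044 to 2894243. It was taken from 80 genes with 2 windows by the tie rule.

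Of the 15426 genes with both, 411 had windows of both proteins that never overlapped, a small part of the class. AIL6 (AT5G10510), a transcription factor of flower meristems related to AINTEGUMENTA, had 1 LSH2 window in its body on chromosome 5 at 3317245 to 3317444. Its LSH3 windows lay apart, at 3318732 to 3318931 and 3319678 to 3319877 in the body and at 3320667 to 3320866 in the flank, and its neighbour RBK1 shares these 3. IMK2, a receptor-like kinase gene of inflorescence meristems, had 4 LSH2 windows in its flanks and 1 LSH3 window in its body. LON1, a mitochondrial protease gene, had 2 of each in its body, the nearest centres 410 bp apart. AT1G27880 and AT2G21480 had 3 LSH2 and 2 LSH3 windows each.

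At the other end were long genes with many superimposed windows. GSL8, a callose synthase gene, had 10 LSH2 and 9 LSH3 windows, of which 9 and 8 overlapped. GRV2, of endosome function, had 10 and 9 with 9 overlapping on each side. ESP, which encodes separase, and AT5G40450 had 9 of each, all overlapping. AT5G06120 had 11 LSH2 and 9 LSH3 windows, with 9 overlapping.

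Over the 174 genes of 8 lists, 16 of them housekeeping genes, 20 had windows of LSH2 only (11.5%, 7.57 to 17.1%) and 2 of LSH3 only (1.15%, 0.316 to 4.09%). Over all protein-coding genes these shares were 11.7% and 3.54%, and both intervals include them. Both proteins had windows at 121 list genes (69.5%, 62.3 to 75.9%), against 56.2% of all genes, and neither at 31 (17.8%, 12.8 to 24.2%), against 28.5% of all genes. These shares were not adjusted for gene length. Except for the ALOG family, each list had a median gene length of 2504 bp or more, against 2078 bp for all genes. Among all genes, both proteins had windows at 60.2% of those of 2000 to 3000 bp and 70.4% of those of 3000 to 5000 bp. The housekeeping list had the highest share with both, 87.5%.

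Of the 10 ALOG genes, 3 had windows of LSH2 only, none of LSH3 only and 6 of both. Over all protein-coding genes these shares were 11.7%, 3.54% and 56.2%. The LSH2-only ALOG genes rest on 1 window each, and the difference was not tested. LSH8 had its window in the flank, on chromosome 1 at 5787329 to 5787528, held by no other list. LSH9 had 1 in its body on chromosome 4 at 10251665 to 10251864, 15732 bp from the nearest LSH3 window, and LSH10 had 1 in its body on chromosome 2 at 17749068 to 17749267. At the LSH3 gene itself the windows of the proteins differed by 1 bp, at 13278844 to 13279043 for LSH2 and 13278843 to 13279042 for LSH3 on chromosome 2, inside the gene. At the LSH2 gene, LSH2 had 2 flank windows on chromosome 3, at 1214126 to 1214325 and 1214454 to 1214653, and LSH3 had 2, at 1214434 to 1214633 and 1214631 to 1214830. LSH1, LSH4, LSH6 and LSH7 held overlapping windows of both, with centres 2 to 14 bp apart, and LSH6 had 1 further window of LSH2 only. LSH5 had none.

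Among 29 floral meristem and organ identity genes, 3 were LSH2 only (10.3%), none LSH3 only and 22 had both (75.9%). Over all protein-coding genes the shares were 11.7%, 3.54% and 56.2%. SEP4 and SEP3 encode MADS-box proteins that take part in floral organ identity, and STK one that specifies ovules. SEP4 had 3 LSH2 windows in its flanks that no other list held, at 1128387 to 1128586, 1133370 to 1133569 and 1133542 to 1133741 on chromosome 2. The window from 1133370 overlaps the one from 1133542. SEP3 had 1 on chromosome 1 at 8592484 to 8592683, and STK 1. LFY, the master regulator of floral meristem identity, had 3 LSH2 and 3 LSH3 windows, all overlapping.

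Of 32 flowering time genes, 5 were LSH2 only (15.6%) and 21 had both (65.6%), against 11.7% and 56.2% of all protein-coding genes. TSF, a florigen gene close to FT, had its LSH2 window in the body on chromosome 4 at 11002239 to 11002438, held by no other list. SMZ, an AP2-like floral repressor, had 1 in its body on chromosome 3 at 20374866 to 20375065, and TOE3, another AP2-like gene, 2 in its flanks. MAF1, a relative of FLC, had 1 flank window and SPL4, of the phase change to flowering, 2.

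Among 23 organ boundary and KNOX/BELL genes only CUC1 was LSH2 only (4.35%), and 16 had both (69.6%). Over all protein-coding genes these shares were 11.7% and 56.2%. CUC1 separates cotyledons and floral organs, and its window lay in the flank on chromosome 3 at 5112744 to 5112943. Its relatives CUC2 and CUC3 had 2 and 3 LSH2 windows and 1 LSH3 window each, which overlapped. Among 17 meristem maintenance and polarity genes AS1, a MYB gene that represses KNOX genes in leaves, was LSH2 only, with 1 window in its body on chromosome 2 at 15783085 to 15783284 and 1 in its flank. AS1 makes up 5.88% of that list, against 11.7% LSH2 only over all genes, and neither list was tested.

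The cytokinin list was the only one of the 8 with LSH3-only members, 2 of 24, beside 2 of LSH2 only and 16 of both. The 2 make up 8.33% of the list, against 3.54% of all protein-coding genes, and each rests on 1 window. They were the response regulator genes ARR4, with an LSH3 window in its body on chromosome 1 at 3443143 to 3443342, and ARR6, with 1 in its flank on chromosome 5 at 25251366 to 25251565. ARR7, of the same family of negative regulators of cytokinin signalling, had 1 LSH2-only window 1789 bp outside the gene, and CKX7, a cytokinin oxidase gene, had 2 in its flanks. The nearest LSH3 window was centred 278 bp from that of ARR7 and lay beyond the 2000 bp limit of the gene.

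Of 23 light signalling genes, 5 were LSH2 only (21.7%), none LSH3 only and 14 had both. Over all protein-coding genes 11.7% were LSH2 only, and the difference rests on few genes and was not tested. PIF4 and PIF5 (PIL6 in the gene table) encode factors that bind phytochrome and promote elongation. PIF4 had 2 flank windows on chromosome 2, at 17889486 to 17889685 and 17890431 to 17890630, and PIF5 1 in its body on chromosome 3 at 21830372 to 21830571. HFR1, a factor of shade and far-red responses, FHY1, which carries phytochrome A into the nucleus, and the phytochrome gene PHYE had 1 flank window each. These windows lay 1647, 1730 and 1770 bp outside the genes. In the housekeeping comparison list none of 16 was hit by one protein only, and 14 had both.

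Several well-known developmental genes had no window of either protein in this interval. Such genes make up 17.8% of the list genes, fewer than the 28.5% over all protein-coding genes. The florigen gene FT and the floral integrator SOC1 were among them. The floral identity genes AP2 and PI, the stem cell signal gene CLV3 and the boundary gene LAS were also without one. The cytokinin list had 4 such genes, ARR3, ARR16, LOG1 and LOG7, of response regulation and cytokinin activation.

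**Figure D5:**
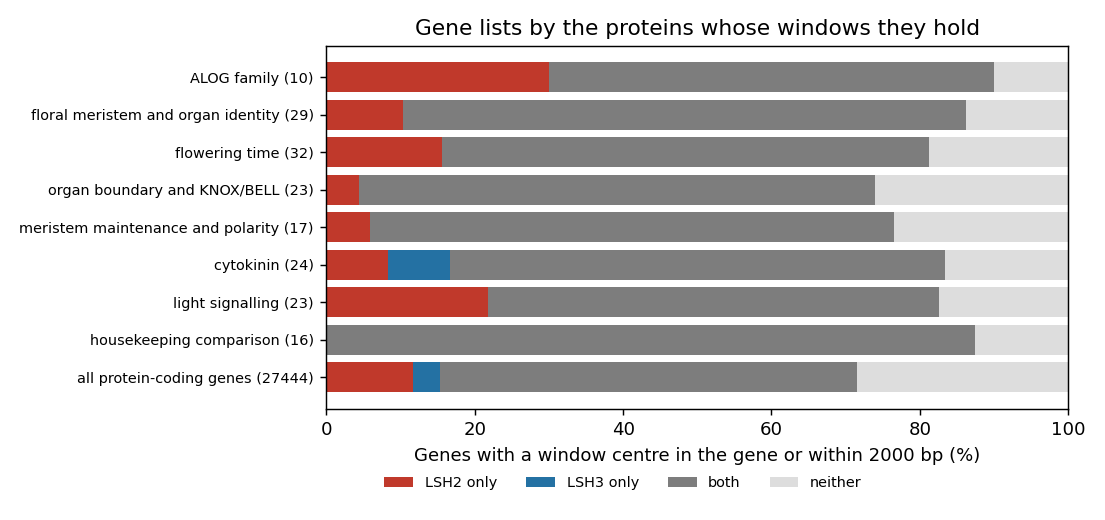
Percent of the genes of each list (number of genes in brackets) with a window centre in the gene or within 2000 bp for LSH2 only, LSH3 only, both or neither, with all protein-coding genes as the last bar. LSH2-only genes make up 30% of the 10 ALOG genes and 11.7% of all genes, and LSH3-only genes appear in the cytokinin list and among all genes. The ALOG share rests on few genes, and the difference was not tested.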

How the data were processed

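The authors' deposited lists give, per the files' contents, the chromosome, start and end of each window, with no score or summit, in windows of 200 bp. Per the submitters' processing notes the tools were Bowtie2, SAMtools and MACS2, with settings, thresholds and build not given in the sources used here. Groups came from sample titles.

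Windows were compared by position, and gene names and places came from RefSeq's table for TAIR10.1. Moving all windows by 1000 bp either way lowered the share inside genes to 66.5% for LSH2, against 68.3% unmoved, and to 70.5 and 70.2% for LSH3, against 75.3%. For LSH2 a move of 500 bp gave up to 68.5%, so this check of the build is weak for that list. Of 176 list genes 174 matched. The base background covers chromosomes 1 to 5.

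The windows, gene lists and rules were chosen with earlier results of these data known. Genes were named by most windows of one protein (10 each), most overlapping windows (5), windows of both without overlap (5), ALOG membership and list members of one protein only, with ties going to genes with a symbol, then more body windows, then identifier. The planned promoter motifs and protein comparison were not run, as no sequences were used here. Overlap counting was tested on simulated windows. Tools were pandas 2.3.3, numpy 2.4.6 and scipy 1.17.1 under Python 3.11.15, with matplotlib 3.10.9 for plots.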

Additional observations from a re-analysis of the deposited data

How the results depend on the processing

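The split of gene bodies between LSH2-only and LSH3-only windows kept its direction under every alternative run. LSH2-only windows were inside genes in 60.7% of cases by any overlap with a gene, 62.0% with genes of every kind and 55.6% when windows within 200 bp of the other list counted as shared. LSH3-only windows were inside genes of every kind in 91.5%. Shared windows reached 75.9% by any overlap, 79.0% with genes of every kind and 80.4% among those of no other list, an alternative added once the values were known. The share of LSH2 windows overlapping LSH3 was 67.2% with 100 bp required, 58.8% with centres within 20 bp and 71.0% with windows within 200 bp counted. For LSH3 windows overlapping LSH2 these were 83.6%, 73.2% and 87.1%. With centres within 20 bp, 4623 LSH3 windows were unshared. Requiring 100 bp, no other list held 21.5% of LSH2-only, 24.5% of LSH3-only and 7.15% of shared windows. Gene counts followed the interval. In the gene body alone 1903 genes were LSH2 only and 8006 had both, and with 500 bp 9908 had both. Genes with at least 2 windows of one protein, likewise added, numbered 632 for LSH2 only and 89 for LSH3 only. Of 42 named genes of one protein, 22 kept their class in the gene body alone, 34 with 1000 bp and 40 by any overlap. No paired analysis was possible because each protein has 1 list. Without scores or reads the lists could not be set to equal depth.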

Other observations

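Runs of unshared windows along the chromosomes were counted after the data were seen, as consecutive windows of one protein with no window of the other between them. LSH2 had 486 runs of 3 or more windows among 4660 runs of any length, and LSH3 45 among 2275. LSH2 has more unshared windows, which makes long runs likelier, and the counts were not set against a random order. The longest LSH2 runs held 9 windows. One spans 21038 bp on chromosome 1, from 18613014 to 18634051, and reaches from FU to TAF15. The other, from 28816800 to 28846405, includes IGMT5. The longest LSH3 run held 5 windows within 3888 bp on chromosome 3, from 19825834 to 19829721, at ABCG37, an ABC transporter gene.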
